A study of Mus musculus with 22 samples.

Results

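The genes followed here are 10 genes of the steroid pathway and hormone output of Leydig cells, the androgen-producing cells of the testis interstitium. They are *Star*, *Cyp11a1*, *Fdx1*, *Hsd3b1*, *Hsd3b6*, *Cyp17a1*, *Hsd17b3*, *Srd5a1*, *Insl3* and *Lhcgr*, taken by gene symbol from the deposited count table, in which they are 10 of 17931 symbols. RNA was sequenced from whole testes of 7 month old males, 3 wild type (WT) and 3 carrying a constitutive *Mlx* knockout (MLX KO), as 3 numbered pairs of littermates. MLX is a basic helix-loop-helix leucine zipper protein that heterodimerizes with MondoA, ChREBP and some MXD-family proteins. The knockout allele lacks exons 3 to 6 of *Mlx*, which encode the dimerization and DNA-binding region, in every tissue of the animal, so the Leydig cells and all other cells of the testis carry it. The allele was made in 129S4 embryonic stem cells and passed on after deletion with Meox2-Cre, in lines from independent clones, and the sources used here do not say which line gave these animals. The WT males were fertile breeders, and no animal was treated. The comparison asks how the Leydig cell steroid genes differ between MLX KO and WT testes. *Mlx* itself had 128, 96 and 98 counts in the libraries labelled WT and 94, 109 and 102 in those labelled KO. These are counts over the whole gene, of which the knockout keeps the exons outside 3 to 6. Counts by exon were not examined, so the lack of a clear fall is unexplained and the counts do not check the genotype.

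Luteinizing hormone from the pituitary binds the receptor encoded by *Lhcgr* on Leydig cells and raises cAMP, which acutely drives STAR to move cholesterol to the inner mitochondrial membrane. There CYP11A1 cleaves the cholesterol side chain to give pregnenolone, with electrons passed on by ferredoxin, the product of *Fdx1*. The 3β-hydroxysteroid dehydrogenases of *Hsd3b1* and *Hsd3b6*, the hydroxylase and lyase CYP17A1 and the dehydrogenase HSD17B3 then carry the steroid to testosterone, which SRD5A1 can reduce to dihydrotestosterone. *Insl3* encodes a peptide hormone of Leydig cells that acts in testis descent and in the adult reports on the differentiated state of these cells rather than on acute stimulation.

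The members lie on 6 mouse chromosomes (mm10, RefSeq annotation). *Star* spans chr8:25808474-25815982 and *Insl3* chr8:71689252-71690577, both on the plus strand. *Fdx1* spans chr9:51943023-51963602 on the minus strand and *Cyp11a1* chr9:57998024-58027031 on the plus strand. *Hsd3b6* (chr3:98805504-98814443) and *Hsd3b1* (chr3:98842356-98859794) are tandem paralogs on the minus strand with 27.9 kb between them. *Hsd17b3* lies at chr13:64058274-64089262, *Srd5a1* at chr13:69573449-69611485, *Lhcgr* at chr17:88716384-88792059 and *Cyp17a1* at chr19:46667165-46673000, all on the minus strand.

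Promoter windows, the 250 bases before an annotated start, were available from RefSeq (GRCm38.p6) for 8 of the 10 members. *Star* and *Cyp17a1* had no entry. The sequences below belong to the *Insl3* and *Fdx1* genes, which had the greatest and the smallest LFC among members past the threshold, to *Hsd17b3*, and to the neighbouring *Hsd3b6* and *Hsd3b1*. These are all the members whose window holds a motif marked here. The windows of *Cyp11a1*, *Lhcgr* and *Srd5a1*, not shown, hold neither of the exact letter strings marked. Capitals mark CAAGGT, the core of the element bound by the steroidogenic factor NR5A1, or AGATAA, which the zinc finger proteins of the GATA family bind, on either strand, and each line runs 5′ to 3′ along the strand of the gene.
*Insl3* promoter, 250 bases, chr8:71689002-71689251, plus strand: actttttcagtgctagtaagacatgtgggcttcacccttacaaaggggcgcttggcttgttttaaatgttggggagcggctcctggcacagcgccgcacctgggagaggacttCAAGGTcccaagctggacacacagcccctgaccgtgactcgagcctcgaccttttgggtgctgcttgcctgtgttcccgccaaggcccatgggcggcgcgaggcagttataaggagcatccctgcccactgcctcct
*Fdx1* promoter, 250 bases, chr9:51963603-51963852, minus strand: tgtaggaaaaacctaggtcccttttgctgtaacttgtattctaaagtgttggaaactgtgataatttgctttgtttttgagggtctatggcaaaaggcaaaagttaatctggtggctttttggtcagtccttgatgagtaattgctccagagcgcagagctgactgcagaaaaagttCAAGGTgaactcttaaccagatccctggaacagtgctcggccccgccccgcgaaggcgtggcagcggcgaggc
*Hsd17b3* promoter, 250 bases, chr13:64089202-64089451, minus strand: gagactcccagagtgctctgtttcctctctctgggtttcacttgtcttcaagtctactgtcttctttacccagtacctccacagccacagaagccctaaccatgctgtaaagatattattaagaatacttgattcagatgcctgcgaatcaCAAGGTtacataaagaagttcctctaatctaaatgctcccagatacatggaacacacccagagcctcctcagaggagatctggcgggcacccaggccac
*Hsd3b6* promoter, 250 bases, chr3:98814444-98814693, minus strand: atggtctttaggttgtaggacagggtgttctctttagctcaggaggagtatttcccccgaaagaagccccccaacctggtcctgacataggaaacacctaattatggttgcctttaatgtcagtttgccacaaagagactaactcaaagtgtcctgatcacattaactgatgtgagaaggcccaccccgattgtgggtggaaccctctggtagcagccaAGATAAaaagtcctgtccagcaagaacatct
*Hsd3b1* promoter, 250 bases, chr3:98859795-98860044, minus strand: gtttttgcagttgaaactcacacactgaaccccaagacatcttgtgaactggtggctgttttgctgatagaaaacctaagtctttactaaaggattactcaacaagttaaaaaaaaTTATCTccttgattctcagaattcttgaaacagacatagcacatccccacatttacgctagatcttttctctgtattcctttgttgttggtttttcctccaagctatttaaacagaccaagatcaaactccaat
The CAAGGT core was found in 3 of the 9 member windows, those of *Insl3*, *Fdx1* and *Hsd17b3*. It started at positions -137, -73 and -99 counted from the start used for each window. For *Hsd17b3* that start lies inside the span given above: the window covers 64089202 to 64089451 and the gene reaches 64089262. The *Lhcgr* and *Srd5a1* windows likewise overlap their genes. Of all 32851 windows of the same length, 10.9% hold CAAGGT on either strand. The AGATAA motif was found in 2 of the 9 member windows and in 9.99% of all windows. In *Hsd3b6* it was at position -31 and in *Hsd3b1* at position -134, the latter on the opposite strand. The complete NR5A1 element CAAGGTCA, which contains the core, was in no member window and in 1.33% of all windows. The cAMP response element TGACGTCA (1.55% of all windows), the E-box CACGTG (6.02%), a hexamer that dimers of the MLX network bind, and the TATA box TATAAA (12.4%) were likewise in none of the 9 member windows, of which *Cyp11a1* has 2 for its alternative starts. These matches describe exact letters in short windows and were not tested for binding. Variant forms of the motifs, the GATA motif and the TATA box included, were not searched.

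All 10 members were tested, with at least 71 counts in every library. In MLX KO testes 9 of the 10 rose past the threshold (adjusted p under 0.05, quasi-likelihood F-test of edgeR, Benjamini-Hochberg adjusted over 14640 genes) and 0 fell, against 24.8% of all genes tested that were higher and 20.6% that were lower. The median log2 fold change (LFC) of the members was 1.05, and that of all genes tested was 0.03. The exception was *Srd5a1*. In CPM (counts scaled to a fixed library size with TMM factors), every MLX KO library lay above every WT library for all 10 members, as it did for 30.3% of all genes tested. Together the members took 0.0865%, 0.087% and 0.0858% of the counts of the WT libraries of pairs 1, 2 and 3, and 0.194%, 0.266% and 0.246% of those of the MLX KO libraries. These are whole testes, so more Leydig cells among the cells of the sample and more RNA per Leydig cell cannot be told apart. Values by library are given in the order of pairs 1, 2 and 3, WT before MLX KO.

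**Figure D1:**
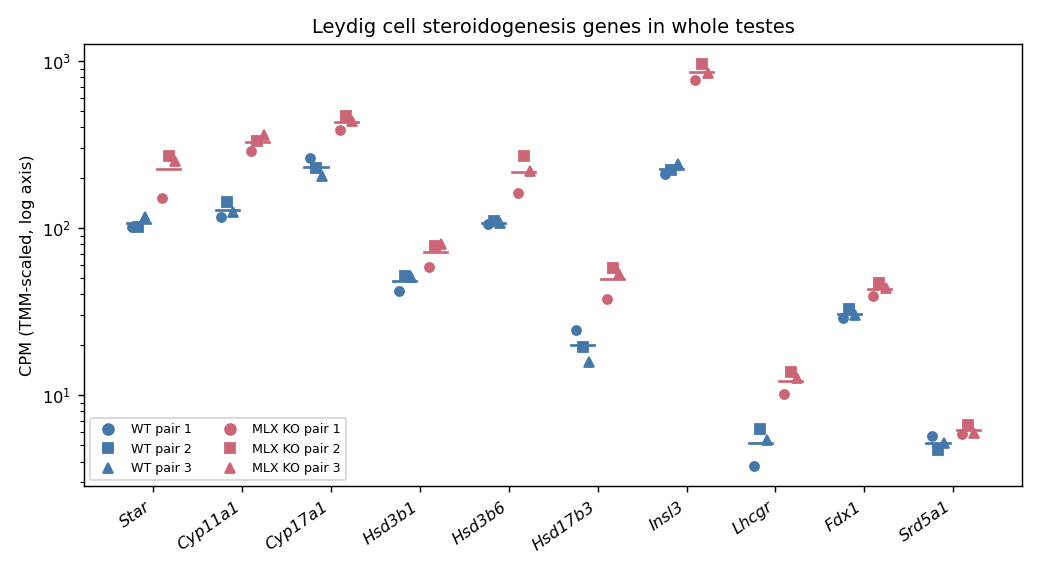
CPM (TMM-scaled, log axis) of the 10 genes in each library, with marker shape for the pair, color for the genotype and a horizontal line at the mean of the 3 libraries. MLX KO values sit above WT values for every gene, with the widest gap for Insl3 (211 to 241 against 765 to 958 CPM) and the narrowest for Srd5a1 (4.71 to 5.69 against 5.88 to 6.64 CPM).

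Expression of the genes for cholesterol transfer and side chain cleavage was higher in MLX KO testes. *Star*, the acute regulator of cholesterol transfer into mitochondria, had 101, 102 and 117 CPM in WT and 151, 271 and 252 CPM in MLX KO testes. The groups did not overlap, and the MLX KO library of pair 1 was well below the other two MLX KO libraries. Its LFC was 1.07 (SE 0.17, edgeR adjusted p = 0.000482). *Cyp11a1*, the side chain cleavage enzyme that commits cholesterol to steroid synthesis, had 116, 144 and 124 CPM in WT libraries and 288, 330 and 360 CPM in those of MLX KO males. All 3 MLX KO libraries were far above all 3 WT libraries, with an LFC of 1.35 (SE 0.09, edgeR adjusted p = 3.31e-06). *Fdx1*, the ferredoxin that feeds electrons to CYP11A1, moved from 29.1, 32.7 and 30.0 CPM to 39.2, 46.9 and 43.6 CPM. That is an LFC of 0.50 (SE 0.08, edgeR adjusted p = 0.000519), a small difference with little spread in either genotype.

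RNA for the enzymes that turn pregnenolone into testosterone rose by differing amounts. In the paper, neither serum testosterone nor seminal vesicle weight differed detectably between WT and MLX KO males. *Cyp17a1*, whose product catalyzes the hydroxylase and lyase steps to androgens, had 261, 230 and 205 CPM in WT and 387, 467 and 440 CPM in MLX KO testes (LFC 0.90, SE 0.09, edgeR adjusted p = 2.97e-05). The lowest MLX KO library was well above the highest WT library. *Hsd17b3*, the enzyme of the last step to testosterone, had 24.6, 19.5 and 15.7 CPM in WT and 37.7, 57.9 and 53.3 CPM in MLX KO testes. The groups were separate, yet pair 1 combined the highest WT library with the lowest MLX KO library, and its within-pair log2 difference of 0.62 was well under the 1.57 and 1.76 of pairs 2 and 3. The fitted LFC was 1.31 (SE 0.17, edgeR adjusted p = 0.000155). *Srd5a1*, the reductase that makes dihydrotestosterone, had 5.69, 4.71 and 5.19 CPM in WT and 5.88, 6.64 and 5.93 CPM in MLX KO testes. The libraries of the genotypes nearly touched, and the LFC of 0.24 (SE 0.13, edgeR adjusted p = 0.169) did not pass the threshold. Of the 50-base windows of *Srd5a1* transcripts, 15.1% also occur in transcripts of *Gm17108*, so some of its reads can be assigned uncertainly.

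The 3β-hydroxysteroid dehydrogenase paralogs, whose promoter sequences are given above, differed from each other. *Hsd3b6*, the form characteristic of adult mouse Leydig cells, had 105, 110 and 107 CPM in WT and 161, 271 and 220 CPM in MLX KO testes (LFC 1.02, SE 0.14, edgeR adjusted p = 0.000223). WT libraries were almost identical, with a coefficient of variation of 2.2%, and the MLX KO libraries spread to 25.2%. *Hsd3b1*, which is also expressed in the adrenal cortex, had 42.2, 51.9 and 50.9 CPM in WT and 58.3, 77.6 and 80.7 CPM in MLX KO testes (LFC 0.58, SE 0.11, edgeR adjusted p = 0.00197). The ratio of *Hsd3b6* to *Hsd3b1* counts was 2.49, 2.12 and 2.09 for WT libraries, compared with 2.76, 3.49 and 2.72 for MLX KO libraries. Every MLX KO ratio was above every WT ratio. Reads of near-identical paralogs can be split uncertainly: 15.7% of the 50-base windows of *Hsd3b6* transcripts, and 4.86% of those of *Hsd3b1*, also occur in transcripts of other genes, for *Hsd3b6* mainly *Hsd3b2* and *Hsd3b3*. *Hsd3b2* had at most 8 and *Hsd3b3* at most 2 counts in any library.

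RNA for the hormone and the receptor among the members rose strongly. *Insl3* had 211, 222 and 241 CPM in WT and 765, 958 and 846 CPM in MLX KO testes. The lowest MLX KO library was more than 3 times the highest WT library, and the LFC was 1.93 (SE 0.08, edgeR adjusted p = 1.94e-07), the largest of the 10. *Lhcgr*, the receptor for luteinizing hormone, had 3.74, 6.30 and 5.41 CPM in WT and 10.2, 13.8 and 12.6 CPM in MLX KO testes. The counts behind these ranged from 71 to 99 for WT and from 198 to 250 for MLX KO, separate groups with an LFC of 1.25 (SE 0.18, edgeR adjusted p = 0.000283). *Insl3* lies inside *Jak3*, a kinase of cytokine signaling on the same strand, of which 1 RefSeq transcript covers 69.2% of the exon bases of *Insl3*. The *Jak3* counts were 259, 205 and 223 for WT, with 327, 449 and 338 for MLX KO libraries (LFC 0.60, SE 0.14, edgeR adjusted p = 0.00435), which is 2.11% to 6.46% of the *Insl3* count. Adding the CPM of *Jak3* to that of *Insl3* gave a MLX KO to WT ratio of mean CPM of 3.69, compared with 3.81 for *Insl3* alone.

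**Figure D2:**
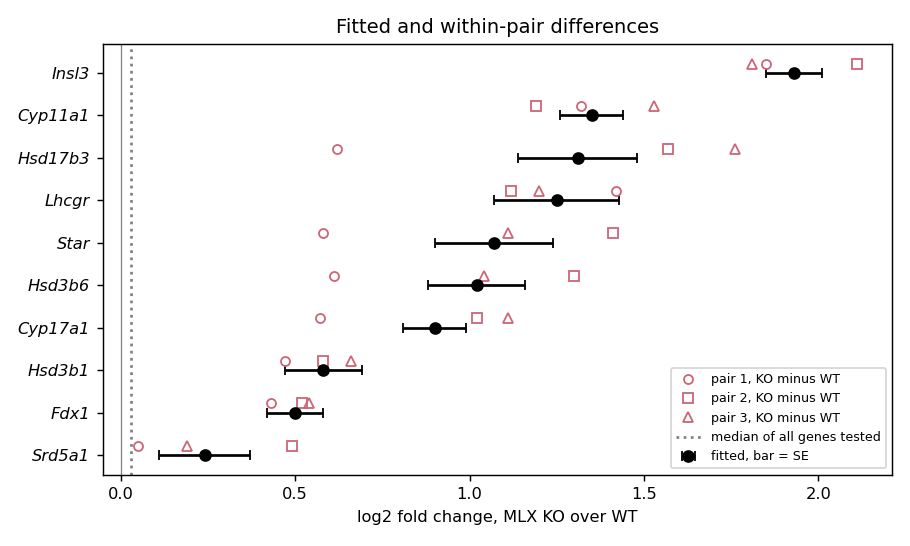
LFC of MLX KO over WT for the 10 genes (x axis, log2 units), as fitted by edgeR with its SE (filled points and bars) and as the log2 CPM difference within each pair (open markers, 1 shape per pair). All markers lie to the right of 0, and pair 1 is well to the left of the other pairs for Hsd17b3, Star, Hsd3b6 and Cyp17a1.

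Each member was higher in MLX KO than in WT in 3 of 3 pairs, but the pairs differed. The median log2 difference of the members was 0.60 in pair 1, 1.16 in pair 2 and 1.11 in pair 3, whereas that of all genes tested was between 0.02 and 0.04 in each. Pair 1 gave the smallest difference for 7 of the 10 members. The MLX KO library of pair 1 was the lowest MLX KO library for all 10 members, and that of pair 2 was the highest for 8. *Cyp11a1*, *Insl3* and *Lhcgr* were the members without their smallest difference in pair 1: their pair 1 differences were 1.32, 1.85 and 1.42. Without pair 1 the median LFC of the members was 1.18, and without pair 2 it was 0.87, with 9 members past the threshold each time.

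Across members, levels were compared as CPM per kilobase of exon, from the union of curated RefSeq exons. *Insl3* was the most abundant in WT (383 ± 25.3, SD, n = 3) and MLX KO testes (1460 ± 166, SD, n = 3). In WT it was followed by *Cyp17a1* (126 ± 15.3), *Hsd3b6* (59.5 ± 1.31), *Cyp11a1* (40.8 ± 4.65), *Star* (26.4 ± 2.15), *Hsd3b1* (26.1 ± 2.88), *Hsd17b3* (15.5 ± 3.47), *Fdx1* (8.89 ± 0.542), *Srd5a1* (1.95 ± 0.185) and *Lhcgr* (0.750 ± 0.189). The rank order was the same in MLX KO testes. *Star* and *Hsd3b1* overlapped in WT and could not be ordered, and in MLX KO testes *Hsd3b6* overlapped *Cyp11a1*, *Star* overlapped *Hsd3b1* and *Hsd3b1* overlapped *Hsd17b3*. All other neighbours in the order were separate in all 3 libraries of the genotype. *Insl3* made up 53.3% to 58.6% of the summed CPM per kilobase of the 10 members in WT and 69.2% to 72.0% in MLX KO libraries, while the share of *Cyp17a1* was 15.9% to 21.0% in WT and at most 11.6% in MLX KO libraries. How the counting treated reads in the *Insl3* exon bases that *Jak3* covers (69.2%) is not known, which limits the *Insl3* level and shares.

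To compare the members with each other independently of library scaling, the log2 CPM of each was taken relative to the mean log2 CPM of the 10 in the same library. *Insl3* gained most on this scale, from 2.19, 2.17 and 2.35 in WT to 3.25, 3.15 and 3.07 in MLX KO libraries, a difference of 0.92. *Cyp11a1* also gained, by 0.34, from 1.32, 1.55 and 1.40 to 1.84, 1.61 and 1.84. Its lowest MLX KO value was only just above its highest WT value. The members with separate groups in the other direction were *Hsd3b1* (-0.44), *Fdx1* (-0.51) and *Srd5a1* (-0.77), whose expression had the smallest LFC. For these 5 members the exact permutation test over the 6 libraries gave p = 0.1, the smallest value this design allows, and 0.2 after Benjamini-Hochberg adjustment over the 10 members. The other 5 overlapped between genotypes: *Hsd17b3* (0.31), *Lhcgr* (0.24), *Star* (0.02), *Hsd3b6* (-0.02) and *Cyp17a1* (-0.11). The ratio of *Insl3* to *Star* counts was 2.08, 2.17 and 2.06 for WT libraries, compared with 5.05, 3.54 and 3.36 for MLX KO libraries, so that the hormone gene increased more than the cholesterol transfer gene in every pair.

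**Figure D3:**
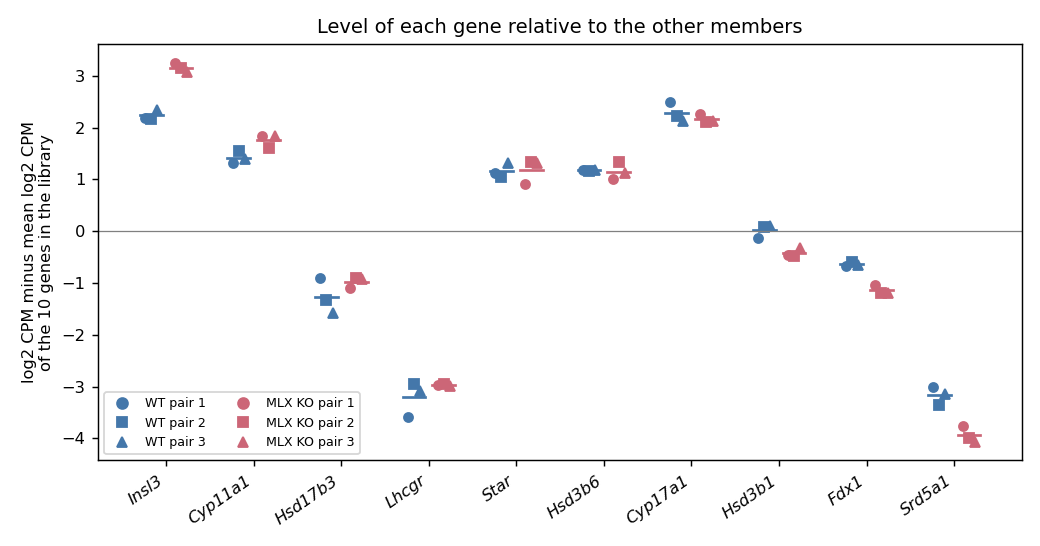
log2 CPM of each gene minus the mean log2 CPM of the 10 genes in the same library (y axis), with marker shape for the pair, color for the genotype and lines at the mean of 3 libraries, ordered by the difference between genotypes. Insl3 (difference 0.92) and Cyp11a1 (0.34) are separate upward, Hsd3b1 (-0.44), Fdx1 (-0.51) and Srd5a1 (-0.77) are separate downward, and the others overlap.

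Genes around the members in the pathway were counted in lists, to be read beside the 24.8% of all genes tested that were higher and the 20.6% that were lower. Of 8 tested transcription regulators of Leydig cells, 5 were higher in MLX KO testes past the threshold and 0 lower, with a median LFC of 0.46. *Nr5a1*, the steroidogenic factor that activates genes of this pathway, had 35.9, 38.9 and 39.0 CPM in WT and 49.5, 81.2 and 70.1 CPM in MLX KO testes (LFC 0.82, SE 0.14, edgeR adjusted p = 0.000851). As with *Star* and *Hsd3b6*, the MLX KO library of pair 1 was the lowest of its group. The zinc finger factor *Gata4* (LFC 0.52), the orphan receptor *Nr2f2* (0.75) and the NR5A1 repressor *Nr0b1* (0.39) also rose. In RNA of whole testes these values cannot be assigned to Leydig cells. All 10 Sertoli cell markers rose as well, with a median LFC of 0.69.

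Of 12 tested genes of cAMP signaling downstream of the receptor, 6 were higher and 3 lower, with a median LFC of 0.22, and the share that was lower was near that of all genes tested. The stimulatory G protein gene *Gnas* (LFC 0.58), the adenylyl cyclase *Adcy9* (0.87) and the catalytic subunit *Prkacb* (0.62) rose. The regulatory subunit *Prkar2a* (-0.55), the phosphodiesterase *Pde8a* (-0.28) and the anchoring protein *Akap1* (-0.34) fell. In RNA of whole testes the values of this list cannot be assigned to Leydig cells, and signaling itself was not measured.

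Of 13 tested genes of cholesterol delivery, 9 were higher and 2 lower, with a median LFC of 0.68. The cholesterol esterifying enzyme *Soat1* had 48.5, 48.5 and 48.7 CPM in WT and 78.4, 92.0 and 92.7 CPM in MLX KO testes (LFC 0.85, SE 0.07, edgeR adjusted p = 7.98e-06). The lysosomal sterol carrier *Npc2* (LFC 0.52), the acyl-CoA binding protein *Dbi* (0.79) and the STAR-related *Stard5* (1.45) rose. The hormone-sensitive lipase *Lipe* (-0.34) and *Stard6* (-0.36), a STAR-related gene of germ cells, fell. The values of the cholesterol delivery list likewise cannot be assigned to Leydig cells. The electron transfer partners of the steroid enzymes gave 5 higher and 0 lower of 6 tested, with a median LFC of 0.69. Ferredoxin reductase *Fdxr*, the partner of *Fdx1*, had an LFC of 0.84 (SE 0.12), compared with the 0.50 (SE 0.08) of *Fdx1*. *H6pd* (1.02), *Cyb5b* (0.42) and *Cyb5r3* (0.74), which supply NADPH or carry electrons, rose too.

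Among other steroid-metabolizing enzymes, 14 of 26 in the table were tested, 10 were higher, 0 were lower and the median LFC was 0.73. The fatty acid elongation enzyme *Hsd17b12* (LFC 1.07), the lipid droplet protein *Hsd17b11* (1.63), the bile acid enzyme *Hsd3b7* (1.37) and the cholesterol synthesis enzyme *Hsd17b7* (0.97) had the smallest adjusted p. *Cyp21a1*, the hydroxylase of adrenal corticosteroid synthesis, named after its values were seen, had counts of 46, 63 and 82 for WT against 97, 314 and 379 for MLX KO libraries (LFC 1.95, SE 0.43, edgeR adjusted p = 0.00364). The groups did not overlap, and the within-pair log2 difference was 1.01 in pair 1 and 2.09 in each of pairs 2 and 3. Other markers of adrenal cortex were at or near 0: *Cyp11b1* and *Cyp11b2* had at most 4 counts and *Mc2r* at most 1 count in any library. Of the 50-base windows of *Cyp21a1* transcripts, 23.8% occur in other genes, mainly its pseudogene *Cyp21a2-ps*.

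Of 9 tested hormone and growth factor receptors, 6 were higher and 1 lower, with a median LFC of 0.93. *Pdgfra* (LFC 1.35), which marks Leydig progenitors and other stroma, the hedgehog receptor *Ptch1* (0.99), *Igf1r* (0.93) and the prolactin receptor *Prlr* (1.09) rose. *Rxfp2*, the receptor of INSL3, which germ cells of the adult testis express, had 13.9, 13.9 and 16.0 CPM in WT and 12.6, 11.1 and 11.9 CPM in MLX KO testes (LFC -0.30, SE 0.10, edgeR adjusted p = 0.0285). This call was lost in DESeq2 (adjusted p = 0.0547) and in 8 of the 17 alternatives in all. Of 6 tested Leydig cell genes outside steroid synthesis, 4 were higher and 0 lower, with a median LFC of 1.10. They were *Mgarp* (LFC 1.30), *Fabp3* (1.49), *Vcam1* (1.54) and *Ptgds* (0.90), the last with 199, 207 and 178 CPM in WT and 305, 402 and 386 CPM in MLX KO testes.

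**Figure D4:**
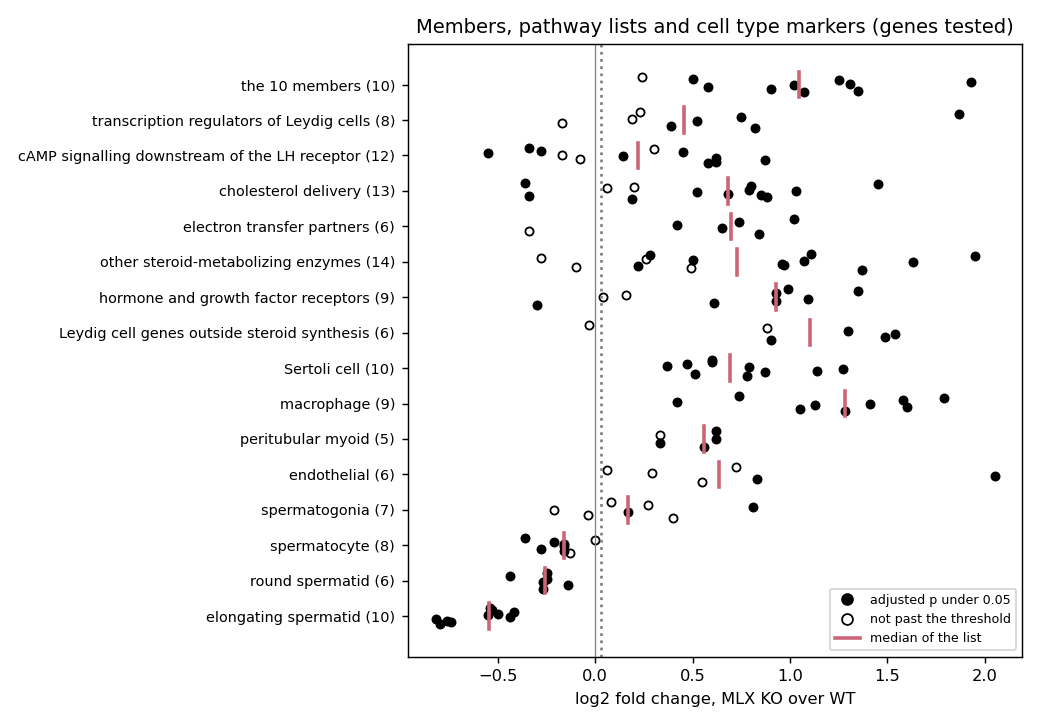
LFC of MLX KO over WT (x axis, log2 units) for each tested gene of the members, the pathway lists and the cell type marker lists, with the number of genes tested in parentheses. Filled points passed an adjusted p of 0.05, open points did not, red bars are list medians and the dotted line is the median of all genes tested (0.03). The median is 1.05 for the members, 0.69 for Sertoli cell, 1.28 for macrophage and -0.55 for elongating spermatid markers.

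Markers of Sertoli cells, macrophages and peritubular myoid cells were also higher in MLX KO testes, and markers of late germ cells were lower. All 10 Sertoli cell markers rose (median LFC 0.69; summed level 359 to 375 CPM in WT and 517 to 591 in MLX KO). All 9 tested macrophage markers rose (1.28; 86.3 to 92.0 and 185 to 190 CPM), as did 4 of 5 peritubular myoid markers (0.56; 72.1 to 87.1 and 108 to 119 CPM). Of the endothelial markers 2 of 6 rose (0.63; 34.1 to 43.2 and 49.5 to 56.7 CPM) and of the spermatogonial markers 2 of 7, shares near the 24.8% of all genes tested that were higher. Among germ cell markers 5 of 8 spermatocyte and all 6 round spermatid markers fell, and all 10 elongating spermatid markers fell (median LFC -0.55). Summed levels of the elongating spermatid markers were 23400 to 24400 CPM in WT and 17000, 14900 and 13900 CPM in the MLX KO libraries of pairs 1, 2 and 3. The MLX KO library of pair 1, lowest for the members, was thus the highest MLX KO library for these spermatid markers, and its Sertoli cell sum of 517 CPM was the lowest of the MLX KO libraries. In MLX KO pairs 1, 2 and 3 the peritubular myoid sums were 108, 119 and 115 CPM. The macrophage sums hardly differed between these libraries (185, 190 and 186 CPM). The part of the changed cell makeup in the members' differences was not tested. Epididymal and adipocyte markers gave no general rise: 1 of 1 tested epididymal marker fell, and among 4 tested adipocyte markers 1 rose and 1 fell.

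The non-member genes whose profile over the 6 libraries was closest to the median profile of the 10 members were *Timp2*, *Smarca1*, *Aqp8*, *Acsbg1* and *Wnt6*, with root mean square distances of 0.0499, 0.0558, 0.0631, 0.0647 and 0.0656 log2 units among 11045 genes with a mean of at least 5 CPM. *Timp2*, a metalloproteinase inhibitor, had 176, 187 and 173 CPM in WT and 309, 431 and 409 CPM in MLX KO testes. It was lowest among MLX KO libraries in pair 1, which follows from its choice by likeness to the members' median profile. Of the members, which define the median, *Hsd3b6* was the closest to it (0.0625) and *Insl3* the farthest (0.470).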

How the data were processed

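Whole testes RNA of 3 WT and 3 MLX KO males was sequenced as 50-base read pairs. The authors deposited raw counts per gene symbol, from reads aligned to mm10 with TopHat; bcl2fastq 1.8.4 is named in the submitters' processing notes, and the counting tool, annotation and strand setting are not given in the sources used here. The table also holds the authors' own comparison, which was not used. ChIP-Seq samples were not analysed here. Libraries held 16674678 to 19742726 counts in 17933 rows, of which 2 repeated another.

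Counts were tested with edgeR 4.0.16 in R 4.3.3 (default filter with a minimum count of 10, TMM, quasi-likelihood, genotype only, Benjamini-Hochberg over 14640 genes, threshold 0.05), two-sided. log2 CPM used a prior count of 2. DESeq2 1.42.0, other scalings and filters, the pair block and left-out libraries were alternatives. Exact permutation tests were enumerated in Python 3.11.15. In a simulated comparison of KO with WT over 14567 genes, edgeR recovered 95 of 100 genes changed by a log2 of 1 and 100 of 100 changed by 2, and called 6 unchanged genes. The simulation used a common dispersion for every gene, no pair effect and 200 changed genes, equally many up and down. It checks that the fit runs and does not measure performance on these data, in which 6649 genes were called.

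The members and lists were chosen with earlier results of these data known. Named genes are the 10 members, genes overlapping them, the 4 of each pathway list with the smallest adjusted p and any that fell, and the 5 nearest profiles. The labels call the replicates paired and the study describes littermate pairs. Within pairs 1, 2 and 3, deviations from the group means correlated at 0.145, 0.0363 and 0.121, and across pairs at 0.033 or less. No 2 libraries of a genotype agreed within sampling noise (chi-square divided by its degrees of freedom was 2.73 to 8.26).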

Additional observations from a re-analysis of the deposited data

How the results depend on the processing

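Under the 17 alternatives to the edgeR fit, the same 9 members stayed past the threshold and higher each time, and no gene named with an LFC, *Cyp21a1* and the 5 nearest profiles included, changed direction. LFC ranged from 1.83 to 2.07 for *Insl3*, 1.25 to 1.49 for *Cyp11a1*, 1.11 to 1.67 for *Hsd17b3*, 1.06 to 1.42 for *Lhcgr*, 0.89 to 1.30 for *Star*, 0.84 to 1.20 for *Hsd3b6*, 0.80 to 1.06 for *Cyp17a1*, 0.49 to 0.72 for *Hsd3b1* and 0.44 to 0.64 for *Fdx1*. *Srd5a1* (0.12 to 0.38) passed only with library size alone (edgeR adjusted p = 0.0485).

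Library size alone shifted the median of all genes to 0.16 and that of the members to 1.19, and changed the split of all called genes from 3634 higher and 3015 lower to 5343 and 1268. With the replicate pair as a block, 9 members passed, their median LFC was 1.01 in edgeR and 0.98 in DESeq2. In edgeR 6743 genes passed with the block and 6649 without it, and in DESeq2 4604 with it and 5774 without it. The block changed no call of a member. Leaving out 1 library gave 5117 to 7361 genes. Leaving out both libraries of a pair gave 7012 genes without pair 1, 3439 without pair 2 and 4192 without pair 3; fewer samples were then tested. Pathway list counts of higher genes stayed within 1.5 times. *Pde8a* was no longer past the threshold without pair 2 (edgeR adjusted p = 0.0502). With GENCODE exon lengths, an alternative chosen after seeing the data, *Star* became rank 6 and *Hsd3b1* rank 5 in WT, the pair whose values overlap. The WT mean of *Cyp11a1* was then 26.6 per kilobase, close to *Hsd3b1* (26.1) and *Star* (26.0). Separation of neighbours in the order was examined with RefSeq lengths only. Differences of relative level changed sign or reached 0 only for members that overlapped between genotypes. With 3 animals per genotype no exact test could go below 0.1, or 0.25 within pairs.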
